A study of Homo sapiens with 10 samples.

Results

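Potassium channel genes were taken as all genes whose symbol was KCN followed by letters and a number. In the FPKM tables of human SH-SY5Y cells 94 of 23585 genes matched, each with 1 row per table. They comprised 51 genes of voltage-gated channels, 16 of inward rectifiers, 15 of two-pore channels and 12 of calcium or sodium activated channels. At a mean above 1 FPKM were 27 of the 94 in LncND siRNA cells, 23 in scrambled siRNA cells, 24 in mimic cells and 26 in scrambled miRNA cells. FPKM is a fragment count scaled both to library size and to transcript length, so levels of different genes can be set side by side.

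Potassium channels let potassium leave the cell along its gradient, which holds the resting potential and ends action potentials. Voltage-gated channels open on depolarization, inward rectifiers pass current near rest and answer to G proteins or ATP, two-pore channels carry a background leak, and the calcium or sodium activated channels follow those ions inside the cell. In neuroblastoma and sympathetic neurons the ether-à-go-go related channels (KCNH genes) and the M-current channels (KCNQ genes) set how readily a cell fires.

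SH-SY5Y is a single human neuroblastoma line, labelled as neural progenitor or neuroblastoma cells. Cells were given 100 nM of siRNA targeting LncND, a long non-coding RNA (3 libraries) or a scrambled siRNA (3 libraries), and 50 nM of a mimic of the microRNA miR-143-3p (2 libraries) or a scrambled miRNA (2 libraries), and poly(A) RNA was sequenced from cells harvested at 72 h. The doses of the scrambled RNAs were not stated, and the levels of LncND and of miR-143-3p were not analysed here. The labels tie no replicate number to a separate culture, so p-values may reflect technical spread alone.

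Of 10 noradrenergic neuroblastoma markers 9 were above 1 FPKM in all 4 groups (GATA3 at 74.6 to 116 FPKM over libraries), and TH, the rate-limiting enzyme of catecholamine synthesis, was at 0.039 to 0.438 FPKM. Markers of other cells were low, with 1 of 10 endothelial or blood, 3 of 10 epithelial, 1 of 10 muscle and 1 of 10 glial genes above 1 FPKM in any group. Some stood higher in LncND siRNA than in scrambled siRNA libraries: summed epithelial markers were at 13.4 to 13.6 against 4.02 to 4.18 FPKM, glial ones at 6.85 to 7.21 against 3.75 to 3.93 FPKM, and endothelial or blood ones at 3.37 to 3.88 against 1.63 to 1.85 FPKM. MUC1, S100B and CD68 made up most of these sums, and each rose (1.51 ± 0.045, 0.77 ± 0.044 and 1.02 ± 0.066, adjusted p = 6.8e-09, 2.62e-07 and 5.81e-07). The tight junction gene CLDN4 rose too, to 2.17 ± 0.23 FPKM in LncND siRNA cells, against 0.621 ± 0.0504 FPKM in scrambled siRNA cells (adjusted p = 1.28e-06). CLDN4 passed the filter of the tests only through the LncND siRNA libraries. Below the filter of the tests, LncND siRNA libraries were also all above their controls for EPCAM (1.12 ± 0.127 and 0.447 ± 0.125 FPKM), KRT18 (0.544 ± 0.116 and 0.182 ± 0.0358 FPKM), KRT19 (0.381 ± 0.0375 and 0.0914 ± 0.0608 FPKM), ERBB3 (0.423 ± 0.0254 and 0.165 ± 0.0326 FPKM) and VWF (0.0991 ± 0.00523 and 0.0470 ± 0.00167 FPKM). So were those for the muscle gene RYR1 (0.298 ± 0.0100 and 0.157 ± 0.0146 FPKM). They were all below their controls for CD34 (0.148 ± 0.0258 and 0.221 ± 0.0324 FPKM) and the muscle gene TNNT2 (0.719 ± 0.185 and 1.04 ± 0.109 FPKM). PTPRC and CDH19 were lower too, at under 0.1 FPKM in every library. The share of all genes without overlap was not counted. The keratin gene KRT5, the glial factor SOX10 and the endothelial PECAM1 stayed below 0.1 FPKM in every library. Muscle markers summed to 1.66 to 1.84 FPKM in LncND siRNA and 1.91 to 1.98 FPKM in scrambled siRNA libraries. In mimic and scrambled miRNA libraries the sums were 3.57 to 3.83 and 3.97 to 4.02 FPKM (epithelial), 3.66 to 3.72 and 4.76 to 5.63 FPKM (glial), 1.46 to 2.01 and 1.2 to 1.33 FPKM (endothelial or blood), and 0.919 to 1.02 and 0.759 to 0.909 FPKM (muscle). The part of these markers in the channel results was not tested. LncND siRNA replicate 1 stood apart through RNY4, a Y RNA, at 1224670 FPKM, and correlated at 0.988 and 0.989 with its replicates, against 0.993 to 0.997 between replicates elsewhere. Its channel genes summed to 360 FPKM, against 365 and 358 FPKM in the other LncND siRNA libraries. Without it 19 rather than 17 channel genes changed with LncND siRNA.

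A microRNA pairs through its seed, bases 2 to 8, with sites in the 3′ UTR of its targets. The mature sequence is shown with the seed in capitals, followed by sites in 3 channel genes, chosen because KCNC1 and KCNJ8 rose with the mimic while KCND1, with as long a match as KCNC1, did not pass; capitals there mark the seed match (TCATCTC to bases 2 to 8, CATCTCA to bases 2 to 7 followed by A, or both overlapping). The microRNA is from RefSeq (GRCh38.p14, chr5:149428978-149428998, plus strand) and the sites from GENCODE v29 transcripts (GRCh38).
hsa-miR-143-3p: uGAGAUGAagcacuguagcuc
KCNC1, chr11:17776539-17776568, plus strand: ccctctcgcagatgcTCATCTCAgcccatt
KCNJ8, chr12:21765123-21765152, minus strand: gaaggtttcctggtcCATCTCAttgcggcc
KCNJ8, chr12:21765014-21765043, minus strand: agtcacttccttcagCATCTCActtcttct
KCND1, chrX:48961463-48961492, minus strand: ggctgaaatctggcaTCATCTCAggttccc
Searched on the transcript strand only, 34 of 92 channel genes with an annotated 3′ UTR held a match (37%), against 2780 of 11194 genes tested with the mimic (24.8%). Channel genes had longer 3′ UTRs, with a median of 2118 bases against 1400 bases over those genes. For each gene the transcript with the longest annotated 3′ UTR was searched, and whether these cells express it was not examined. The 92 channel genes include those too low to be tested. A match is a description of letters and not a shown site of binding.

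Most potassium channel genes had a mean of 1 FPKM or less in every group of SH-SY5Y cells. KCNH2 alone made up 37.7 to 47.6% of the summed channel FPKM over libraries. Above 1 FPKM in all 4 groups were 20 genes, and 19 were above it in every library. A mean above 1 FPKM in at least 1 group was reached by 34 genes, while 30 stayed under 0.1 FPKM in every library. Listed at the lowest value of 0.001 in all libraries were KCNA1, KCNA5, KCNE3, KCNV1, KCNJ15, KCNJ16 and KCNMB1. In bulk RNA, fewer cells with a transcript and less of it per cell cannot be told apart.

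By family, the voltage-gated genes above 1 FPKM numbered 16 of 51 in LncND siRNA, 15 in scrambled siRNA, 16 in mimic and 16 in scrambled miRNA cells. Of the 16 inward rectifier genes there were 3, 1, 1 and 2 in the same order of groups, of the 15 two-pore genes 2, 2, 2 and 3, and of the 12 calcium or sodium activated genes 6, 5, 5 and 5. Genes near 1 FPKM made these differences: KCNJ9, a G protein gated subunit, was at 1.11 ± 0.0753 FPKM in LncND siRNA and 0.379 ± 0.101 FPKM in scrambled siRNA cells, and KCNMA1, the large-conductance calcium-activated pore, at 1.01 ± 0.0314 and 0.494 ± 0.0866 FPKM (SD, n = 3 each). No count of genes above a threshold was tested.

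**Figure D1:**
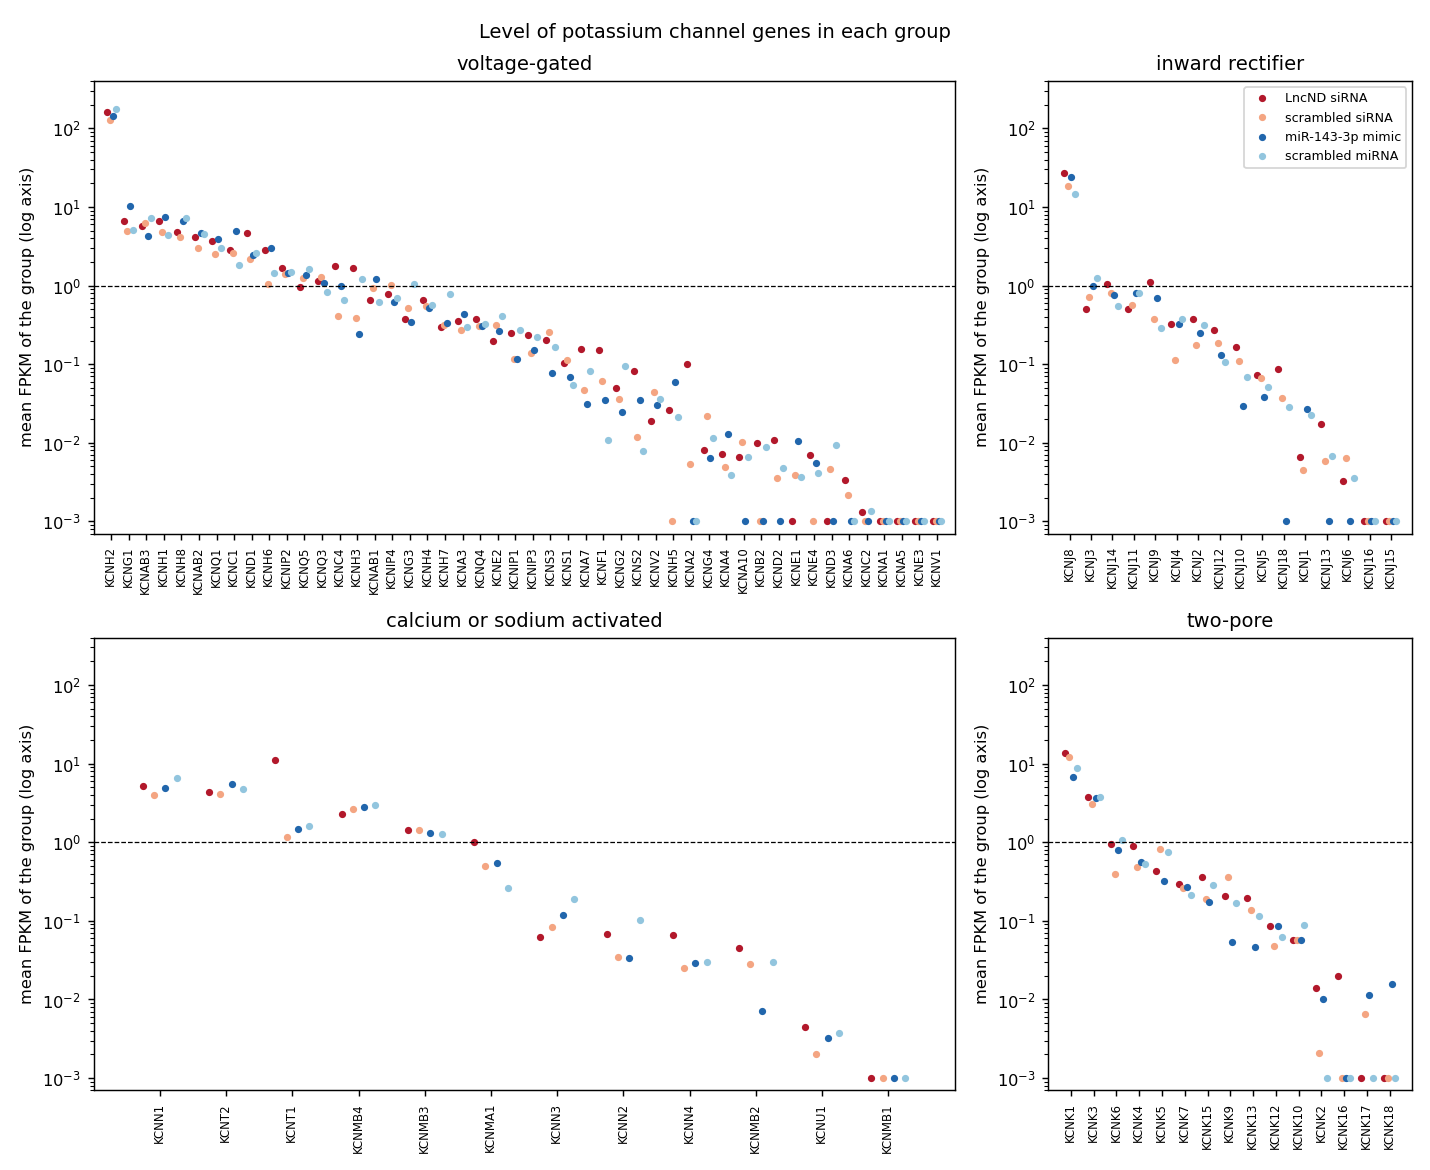
Mean FPKM (log axis) of potassium channel genes in LncND siRNA, scrambled siRNA, mimic and scrambled miRNA cells, by channel family and ordered by level; the dashed line marks 1 FPKM. KCNH2 is the highest gene in every group, and most genes lie below the line.

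KCNH2, the pore of the hERG delayed rectifier, was the highest of all in every group. It alone made up 45.2 to 45.4% of the summed channel FPKM in LncND siRNA libraries and 43.4 to 43.7% in scrambled siRNA libraries. Its share was 37.7 to 38.4% in mimic libraries and 47.3 to 47.6% in scrambled miRNA libraries. The other families were led by KCNJ8, the pore of a vascular-type ATP-sensitive channel, by KCNK1 and KCNK3, and by KCNN1, KCNT2 and, in LncND siRNA cells, KCNT1.

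In the comparison of LncND siRNA with scrambled siRNA, 24 channel genes passed the filter (table mean of 1 FPKM or more), and 15 rose, 2 fell and 7 did not pass the threshold of 0.05 on the adjusted p. Among all 12601 genes tested 66.9% changed, 36.6% up and 30.3% down, so 17 changed genes of 24 is near the background of changes, with a larger share of rises. The median difference of log2(FPKM + 1) was 0.26 over the 24 genes and 0.02 over all genes. On that scale a rise of at least 1.5-fold was seen in 5 channel genes (KCNT1, KCND1, KCNC4, KCNH3 and KCNH6), against 8.28% of all genes, and a fall of that size in 0, against 4.06% of all genes. KCNC4 and KCNH3 passed the filter only through the libraries in which they were high, so their place among the 5 follows in part from the filter. Voltage-gated genes had 10 rises and 1 fall among 16 tested, the inward rectifier KCNJ8 rose, both tested two-pore genes rose, and the calcium or sodium activated genes had 2 rises and 1 fall among 5. Fold changes below are log2 differences ± SE on the log2(FPKM + 1) scale, with limma's adjusted p, and this scale understates changes of low genes.

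KCNT1 (chr9:138594030-138684993, hg19), a sodium-activated channel, moved most. It had 10.2, 12 and 11.1 FPKM in LncND siRNA libraries, against 1.28, 1.20 and 1.01 FPKM in scrambled siRNA libraries. It had 1.40 and 1.58 FPKM in mimic libraries, against 1.57 and 1.63 FPKM in scrambled miRNA libraries. The LncND siRNA libraries lay far above their controls, while mimic and scrambled miRNA libraries were close together, and the effects of the siRNA (2.48 ± 0.068) and the mimic (-0.06 ± 0.087) differed by 2.54 ± 0.11 (adjusted p = 7.13e-10). Its closest relative, KCNT2, did not pass with the siRNA, at 4.35 ± 0.173 FPKM in LncND siRNA and 4.10 ± 0.262 FPKM in scrambled siRNA cells (0.07 ± 0.053, adjusted p = 0.283). With KCNT1 the highest of its family in LncND siRNA cells, the 12 calcium or sodium activated genes summed to 23.9 to 27.1 FPKM there and to 13.7 to 14.4 FPKM in scrambled siRNA libraries.

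Of the rest of this family, KCNN1, a small-conductance calcium-activated channel, had 4.88, 5.55 and 4.94 FPKM in LncND siRNA libraries, against 3.94, 4.11 and 4.01 FPKM in scrambled siRNA libraries. All 3 LncND siRNA values were above all controls, and the rise was small (0.28 ± 0.053, adjusted p = 0.000922). The auxiliary subunit KCNMB4, which slows the large-conductance channel in neurons, had 2.25, 2.34 and 2.31 FPKM in LncND siRNA and 2.60, 2.68 and 2.76 FPKM in scrambled siRNA libraries. It was lower in every LncND siRNA library (-0.16 ± 0.050, adjusted p = 0.0188; 0.063 without scrambled siRNA replicate 3), while its pore partner KCNMA1 lay under the filter and was not tested there. KCNMB3, another auxiliary subunit, was at 1.43 ± 0.176 FPKM in LncND siRNA and 1.41 ± 0.121 FPKM in scrambled siRNA cells (adjusted p = 0.911).

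Of the KCNH genes, KCNH1, KCNH2, KCNH3, KCNH6 and KCNH8 rose with the siRNA, while KCNH4, KCNH5 and KCNH7 lay under the filter. KCNH2 (chr7:150642043-150675402, hg19) had 163, 166 and 162 FPKM in LncND siRNA libraries, against 124, 129 and 129 FPKM in scrambled siRNA libraries (0.36 ± 0.038, adjusted p = 1.94e-05). KCNH6, a neuronal relative of hERG, had 2.61, 3.00 and 2.97 FPKM in LncND siRNA libraries, against 0.995, 1.03 and 1.1 FPKM in scrambled siRNA libraries (0.92 ± 0.062, adjusted p = 7.69e-07). In both genes the groups lay well apart, and the gap was larger relative to the level in KCNH6. KCNH3, an ether-à-go-go like channel of forebrain neurons, had 1.57, 1.62 and 1.87 FPKM in LncND siRNA libraries, against 0.355, 0.415 and 0.397 FPKM in scrambled siRNA libraries (0.95 ± 0.067, adjusted p = 1.09e-06). It passed the filter only through the LncND siRNA libraries. KCNH1, an ether-à-go-go channel known from tumour cells, had 5.73, 6.87 and 7.44 FPKM in LncND siRNA and 4.63, 4.92 and 4.83 FPKM in scrambled siRNA libraries (0.40 ± 0.075, adjusted p = 0.000897). The LncND siRNA libraries spread more than the controls but did not overlap them. KCNH8 was nearest to the threshold (0.16 ± 0.057, adjusted p = 0.0331) and lost its call in 7 of 13 alternative analyses, among them both scalings and 4 in which 1 library was left out (highest adjusted p = 0.201).

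KCNQ3, a pore subunit of M-channels, did not pass (-0.10 ± 0.064, adjusted p = 0.183). KCNQ5, an M-current pore, fell to 0.954 ± 0.0618 FPKM in LncND siRNA cells, against 1.24 ± 0.0327 FPKM in scrambled siRNA cells (-0.20 ± 0.060, adjusted p = 0.0141). With its LncND siRNA mean below the filter, KCNQ5 passed only through the scrambled siRNA libraries, so its place among the falls follows in part from the filter. KCNQ1, an epithelial and cardiac channel, was at 3.66 ± 0.199 FPKM in LncND siRNA and 2.54 ± 0.334 FPKM in scrambled siRNA cells (0.40 ± 0.071, adjusted p = 0.000657). Its locus also holds the antisense RNA KCNQ1OT1, at 1.15 to 1.48 FPKM in LncND siRNA and 1.08 to 1.26 FPKM in scrambled siRNA libraries, and whether the quantification used strand is not given in the sources used here.

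Among fast voltage-gated channels, KCND1, a pore of transient A-type current, had 4.25, 4.89 and 4.95 FPKM in LncND siRNA libraries, against 2.16, 2.35 and 2.12 FPKM in scrambled siRNA libraries (0.83 ± 0.061, adjusted p = 1.49e-06). KCNC4, a fast-inactivating channel of the same family as KCNC1, had 1.59, 2.01 and 1.70 FPKM in LncND siRNA libraries, against 0.442, 0.378 and 0.422 FPKM in scrambled siRNA libraries (0.97 ± 0.072, adjusted p = 1.53e-06). Neither gene had an overlap between its groups, but KCNC4, like KCNH3, passed the filter only through its higher group. KCNC1, a fast delayed rectifier, had 2.64, 2.94 and 2.84 FPKM in LncND siRNA and 2.60, 2.63 and 2.64 FPKM in scrambled siRNA libraries, which did not pass (0.07 ± 0.052, adjusted p = 0.253). The modifying subunit KCNG1, which is silent alone, had 6.79, 6.59 and 6.76 FPKM in LncND siRNA and 4.97, 4.97 and 4.77 FPKM in scrambled siRNA libraries (0.39 ± 0.042, adjusted p = 2.02e-05). Its groups were tight and apart. Of the auxiliary subunits, KCNAB2 rose (0.34 ± 0.052, adjusted p = 0.000241) to 4.11 ± 0.237 FPKM in LncND siRNA cells, against 3.04 ± 0.0755 FPKM in scrambled siRNA cells. KCNAB3, a beta subunit of Shaker-type channels, had 5.63, 6.13 and 5.64 FPKM in LncND siRNA libraries, against 6.29, 5.95 and 6.27 FPKM in scrambled siRNA libraries, and did not pass (-0.08 ± 0.047, adjusted p = 0.174). KCNIP2, a calcium-binding partner of KCND channels, did not pass either (0.14 ± 0.068, adjusted p = 0.0942).

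The inward rectifier and two-pore genes above the filter rose. KCNJ8 (chr12:21917888-21927755, hg19) had 26.5, 26.9 and 26.7 FPKM in LncND siRNA libraries, against 18.7, 18.6 and 18.5 FPKM in scrambled siRNA libraries (0.50 ± 0.033, adjusted p = 6.78e-07). Replicates differed little and the groups were wholly apart. KCNK1, a weakly rectifying leak channel, had 14.6, 13.4 and 13.2 FPKM in LncND siRNA and 11.9, 12.1 and 12.1 FPKM in scrambled siRNA libraries (0.18 ± 0.044, adjusted p = 0.00439). KCNK3, an acid-sensitive leak channel, had 3.93, 3.75 and 3.73 FPKM in LncND siRNA and 3.00, 3.13 and 3.18 FPKM in scrambled siRNA libraries (0.23 ± 0.048, adjusted p = 0.0019). In both leak channels every LncND siRNA library was above every control, by less than 1.5-fold.

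**Figure D2:**
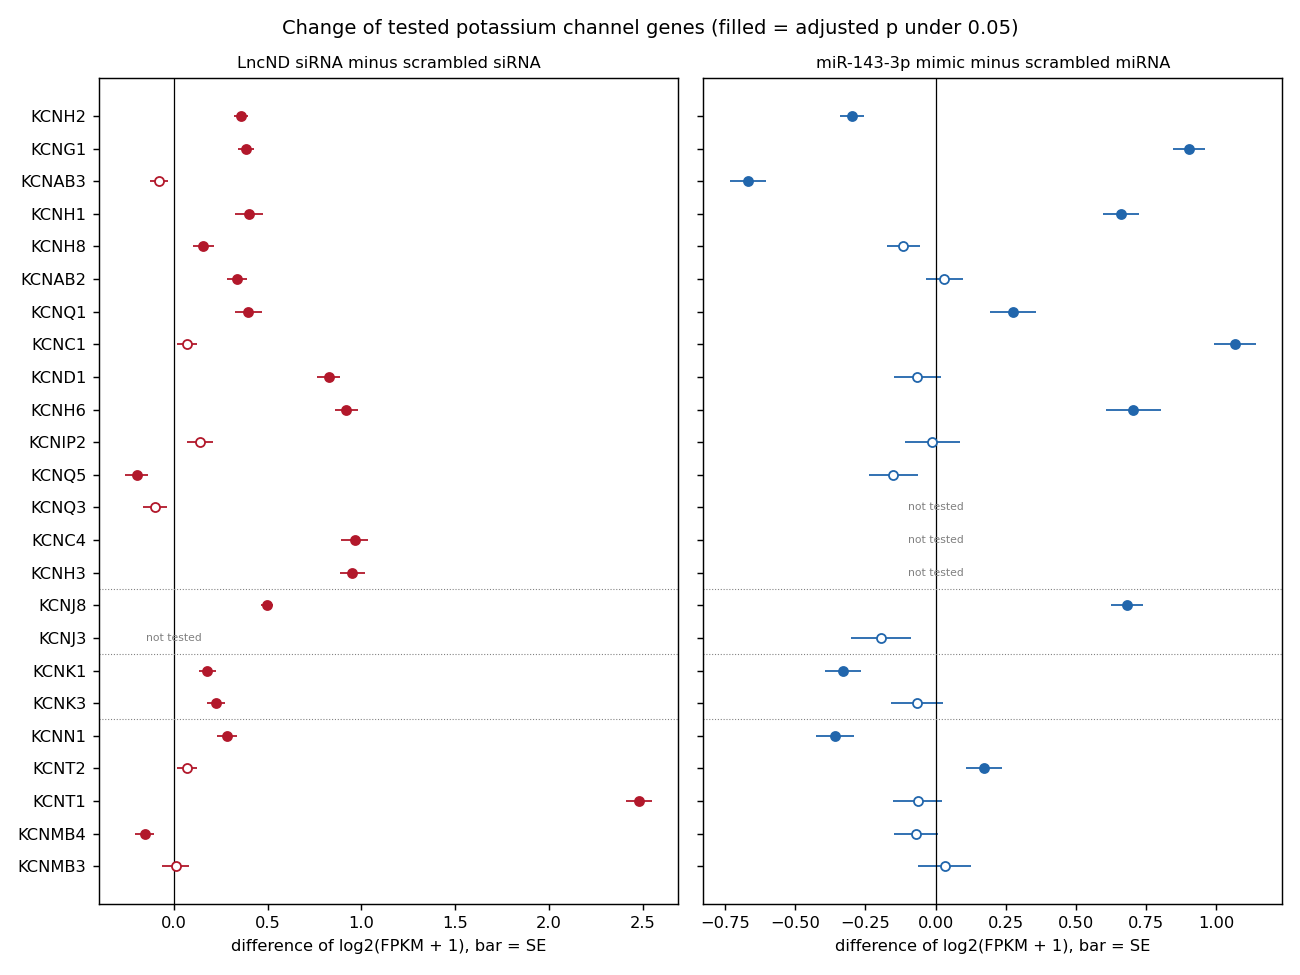
Difference of log2(FPKM + 1) with its SE for the potassium channel genes tested in either table, LncND siRNA minus scrambled siRNA on the left and mimic minus scrambled miRNA on the right, with separate axes; filled points passed an adjusted p of 0.05 and dotted lines part the channel families. On the left KCNT1 lies alone at 2.48 and most filled points are above 0, while on the right they lie on both sides.

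The second comparison set the miR-143-3p mimic against the scrambled miRNA. Of 23 channel genes above its filter 9 rose, 4 fell and 10 did not pass. The rises include a gene, not reported here by name, that passed the filter only through the mimic libraries. Over all 12558 genes tested 63.3% changed, with 24.6% up and 38.6% down, so the channel genes changed about as often as other genes and more of them rose than fell. The median log2 difference was -0.01 over the channel genes and -0.06 over all genes. The all-gene balance of 3094 rises and 4853 falls shifted to 3895 and 4075 under median-ratio scaling and to 4141 and 3860 under quantile normalization, whereas the channel genes had 9 rises and 4 falls under both. A rise of at least 1.5-fold on the log2(FPKM + 1) scale was seen in KCNC1, KCNG1, KCNH6, KCNJ8 and KCNH1, against 3.98% of all genes, and a fall of that size in KCNAB3, against 9.13% of all genes. By family, voltage-gated genes had 7 rises and 2 falls among 14 tested, inward rectifiers 1 rise among 2, two-pore genes 1 fall among 2, and calcium or sodium activated genes 1 rise and 1 fall among 5.

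KCNC1 (chr11:17757494-17804602, hg19) showed the largest of these rises. It had 4.99 and 4.89 FPKM in mimic libraries, against 1.92 and 1.75 FPKM in scrambled miRNA libraries (1.07 ± 0.075, adjusted p = 2.26e-06). KCNG1 had 10.3 and 10.3 FPKM in mimic libraries, against 4.99 and 5.07 FPKM in scrambled miRNA libraries (0.90 ± 0.059, adjusted p = 1.38e-06). In both genes the mimic libraries were about alike and well above their controls.

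KCNH6 had 2.67 and 3.25 FPKM in mimic libraries, against 1.3 and 1.55 FPKM in scrambled miRNA libraries (0.71 ± 0.098, adjusted p = 0.000182). KCNH1 had 7.40 and 7.64 FPKM in mimic libraries, against 4.31 and 4.46 FPKM in scrambled miRNA libraries (0.66 ± 0.063, adjusted p = 1.6e-05). Both rose without overlap, whereas KCNH2 went the other way. KCNH2 had 147 and 141 FPKM in mimic libraries, against 179 and 175 FPKM in scrambled miRNA libraries (-0.30 ± 0.043, adjusted p = 0.000226). The summed channel FPKM was 373 to 383 in mimic libraries and 370 to 375 in scrambled miRNA libraries.

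The largest fall was that of the beta subunit KCNAB3 (chr17:7825176-7832753, hg19), with 4.14 and 4.36 FPKM in mimic libraries, against 7.17 and 7.51 FPKM in scrambled miRNA libraries (-0.67 ± 0.065, adjusted p = 1.83e-05). KCNAB2, its relative, was at 4.70 ± 0.114 FPKM in mimic and 4.58 ± 0.0204 FPKM in scrambled miRNA cells (adjusted p = 0.7). KCNK1 had 6.76 and 6.77 FPKM in mimic libraries, against 9.23 and 8.31 FPKM in scrambled miRNA libraries (-0.33 ± 0.066, adjusted p = 0.00164). KCNN1 had 5.09 and 4.67 FPKM in mimic libraries, against 6.40 and 6.67 FPKM in scrambled miRNA libraries (-0.36 ± 0.068, adjusted p = 0.00122). In KCNAB3, KCNK1 and KCNN1 both mimic libraries were below both controls.

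KCNJ8 rose again, with 25.7 and 23.1 FPKM in mimic libraries, against 14.7 and 14.9 FPKM in scrambled miRNA libraries (0.68 ± 0.058, adjusted p = 7.94e-06). The only other inward rectifier tested, KCNJ3, a subunit of G protein gated channels, had 0.804 and 1.15 FPKM in mimic and 1.3 and 1.22 FPKM in scrambled miRNA libraries. Its mimic libraries were both lower but spread widely, and it did not pass (-0.20 ± 0.11, adjusted p = 0.136). KCNK3 had 4.06 and 3.18 FPKM in mimic and 3.84 and 3.79 FPKM in scrambled miRNA libraries, which overlapped (adjusted p = 0.561). KCNT2 had 5.40 and 5.47 FPKM in mimic and 4.75 and 4.66 FPKM in scrambled miRNA libraries (0.17 ± 0.064, adjusted p = 0.0377), and KCNQ1 was at 3.86 ± 0.267 FPKM in mimic and 3.02 ± 0.268 FPKM in scrambled miRNA cells (0.28 ± 0.081, adjusted p = 0.0139). The rise of KCNT2 was lost in 5 of 11 alternatives, among them the omission of any 1 library (highest adjusted p = 0.154), and that of KCNQ1 in 3, among them the omission of mimic replicate 1 (adjusted p = 0.0744) or scrambled miRNA replicate 1 (adjusted p = 0.1).

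Among the 23 channel genes tested with the mimic, 10 (43.5%) held a seed match of the kind printed above. None of the 4 that fell held one, and 3 of the 9 that rose did (33.3%), among them KCNC1 with the 8-base match shown and KCNJ8 with both of its matches shown. The 9 and the 3 both include the unnamed gene that passed the filter only through the mimic libraries. Over all genes tested a match was held by 29.3% of those that fell and 19.8% of those that rose. The 3′ UTRs had a median length of 1112 bases in the 4 channel genes that fell and 2445 bases in the 9 that rose. Below the filter, 6 further channel genes fell and 4 rose with the mimic when no filter was applied. Of those 6, KCNK6 held 1 match (adjusted p = 0.0366) and KCNN3 held 4 (adjusted p = 0.0496). KCNG3, KCNH3, KCNK5 and KCNS3 held none. Of those 4, KCNMA1 held 1, and KCNAB1, KCNC4 and KCNJ9 held none. KCND1 held the 8-base match shown and a 7-base match not shown. It had 2.66 and 2.29 FPKM in mimic and 2.68 and 2.58 FPKM in scrambled miRNA libraries, which overlapped (-0.06 ± 0.084, adjusted p = 0.519).

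**Figure D3:**
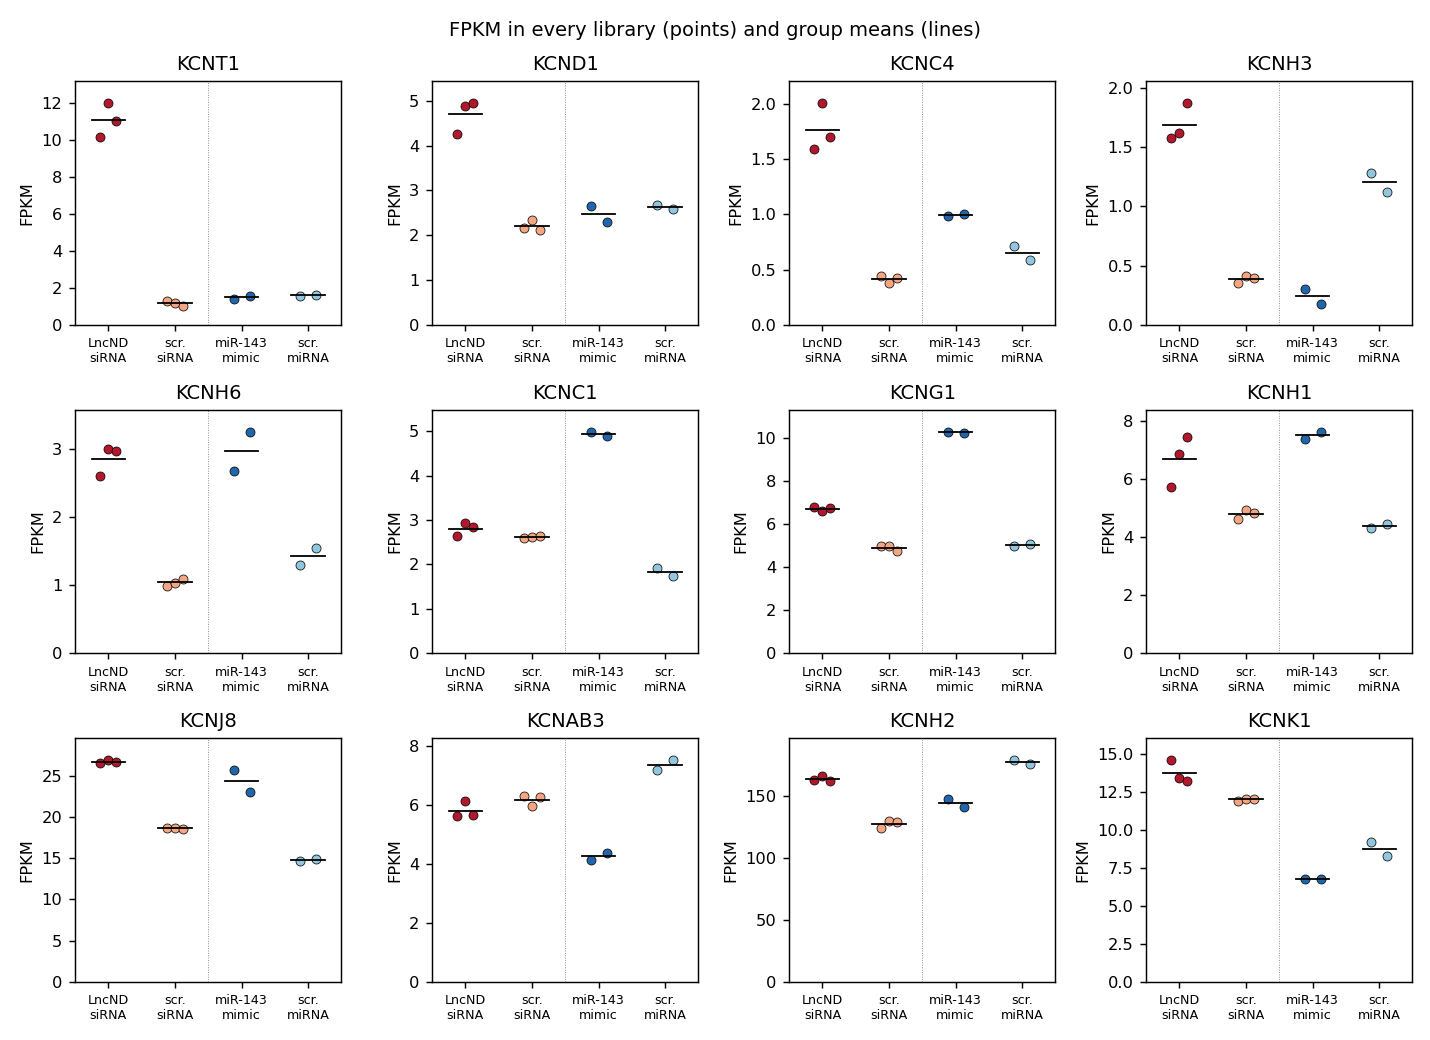
FPKM in every library (points) and group means (lines) of 12 potassium channel genes, with LncND siRNA left of scrambled siRNA and mimic left of scrambled miRNA in each panel; axes start at 0 and differ between panels. KCNT1, KCND1 and KCNC4 are high in LncND siRNA libraries, KCNC1 and KCNG1 are higher in mimic than in scrambled miRNA libraries, and KCNAB3 is lower.

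The effects of the siRNA and the mimic were compared gene by gene in 1 fit of all 10 libraries, in which no control library is shared. Above the filter in both tables were 21 channel genes, of which 13 had effects that differed, against 60.2% of 12327 genes. In 9 the siRNA effect was above the mimic effect, against 38.1% of all genes, and in 4 it was below, against 22% of all genes. This balance depended on scaling, with 7 above and 5 below under median-ratio scaling and 6 above and 8 below under quantile normalization. Besides KCNT1, the effects were furthest apart for KCNC1 (-1.0 ± 0.082, adjusted p = 3.29e-07), KCND1 (0.89 ± 0.10, adjusted p = 6.46e-06), KCNH2 (0.66 ± 0.057, adjusted p = 5.18e-07) and KCNN1 (0.64 ± 0.084, adjusted p = 2.41e-05).

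Changed in both comparisons were 8 of the 21 channel genes tested in both. The share of all genes changed in both was not counted. With the siRNA 66.9% of all genes tested changed, and with the mimic 63.3%. KCNG1, KCNH1, KCNH6, KCNJ8 and KCNQ1 rose with both, which is 33.3% of the channel genes that rose with the siRNA and 55.6% of those that rose with the mimic. Over all genes tested 1552 rose with both, 33.6% and 50.2% of the same lists, so the channel genes were near the background. The call of KCNQ1 with the mimic was among those lost in some alternatives, as given above. Of the 5, KCNG1 rose less with the siRNA than with the mimic (-0.52 ± 0.064, adjusted p = 1.41e-05), and so did KCNJ8 (-0.18 ± 0.063, adjusted p = 0.0222), though not without mimic replicate 1 (adjusted p = 0.133) or scrambled miRNA replicate 1 (adjusted p = 0.0708). For KCNH1, KCNH6 and KCNQ1 the difference of the effects did not pass (-0.26 ± 0.11, 0.21 ± 0.11 and 0.12 ± 0.11, adjusted p = 0.0513, 0.119 and 0.369). KCNH2, KCNK1 and KCNN1 rose with the siRNA and fell with the mimic, and for each of the 3 the effects differed (KCNK1 by 0.51 ± 0.075, adjusted p = 6.39e-05). Over all genes tested 36.6% rose with the siRNA and 38.6% fell with the mimic, and the share that did both was not counted. KCNAB3 passed with the mimic and not with the siRNA, and its effects differed (0.59 ± 0.075, adjusted p = 1.82e-05).

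**Figure D4:**
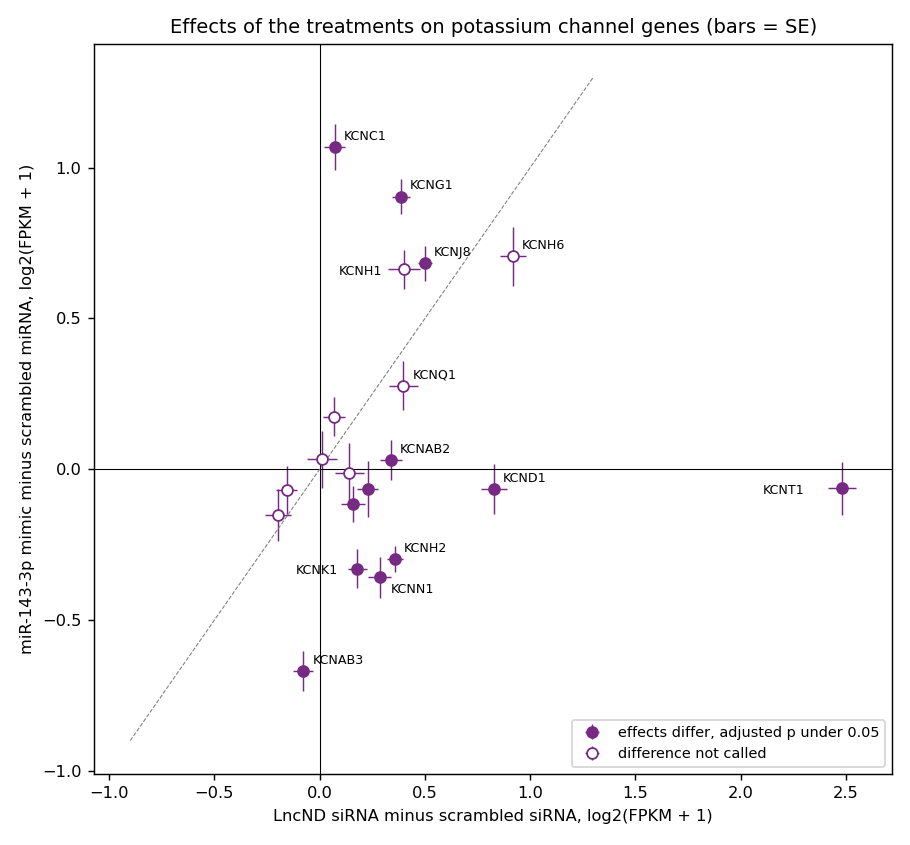
Effect of the mimic (vertical) against effect of LncND siRNA (horizontal) as differences of log2(FPKM + 1) with SE for potassium channel genes tested in both tables; filled points have effects that differed at an adjusted p of 0.05 and the dashed line marks equal effects. KCNT1 and KCND1 lie on the right near 0 on the vertical axis, KCNC1 lies high near 0 on the horizontal axis, and KCNH2, KCNK1 and KCNN1 lie below 0 with the mimic and above 0 with the siRNA.

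The filter left out 70 channel genes of the siRNA comparison and 71 of the mimic comparison. The nearest to it in the mimic comparison was KCNQ3 (table mean 0.953 FPKM), and just inside it were KCNH3 (1.04 FPKM, siRNA) and KCNJ3 (1.12 FPKM, miRNA). When no filter was applied, 14 of the 62 of these genes with a value rose and 4 fell with LncND siRNA, against 15.3% and 4.49% of all 7166 genes under the filter. KCNJ9 had 1.02, 1.17 and 1.13 FPKM in LncND siRNA libraries, against 0.306, 0.494 and 0.337 FPKM in scrambled siRNA libraries (0.61 ± 0.058, adjusted p = 0.000339). KCNMA1 had 1.00, 1.05 and 0.993 FPKM in LncND siRNA libraries, against 0.401, 0.573 and 0.507 FPKM in scrambled siRNA libraries (0.43 ± 0.046, adjusted p = 0.000546). Both lay clear of their controls, at a level near 1 FPKM. KCNK6 and KCNK4, leak channels, rose to 0.955 ± 0.105 and 0.886 ± 0.0261 FPKM in LncND siRNA cells, against 0.392 ± 0.0707 and 0.477 ± 0.0891 FPKM in scrambled siRNA cells. The acid-sensitive KCNK5 fell to 0.427 ± 0.0694 FPKM in LncND siRNA cells, against 0.823 ± 0.0843 FPKM in scrambled siRNA cells (-0.35 ± 0.049, adjusted p = 0.00168). KCNJ3 had 0.468, 0.536 and 0.5 FPKM in LncND siRNA libraries, against 0.846, 0.663 and 0.656 FPKM in scrambled siRNA libraries, all lower with the siRNA (-0.20 ± 0.048, adjusted p = 0.0173). KCNJ14, a neuronal inward rectifier, was at 1.04 ± 0.121 FPKM in LncND siRNA and 0.815 ± 0.0601 FPKM in scrambled siRNA cells (0.17 ± 0.053, adjusted p = 0.043). KCNJ12 also rose in that fit, at a mean of 0.272 FPKM or less in every group, and is uncertain because KCNJ18 is a near-identical copy.

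With the mimic and no filter, 4 of 61 channel genes below it rose and 6 fell, against 5.92% and 8.54% of all 6338 genes below it. KCNJ9 had 0.735 and 0.665 FPKM in mimic libraries, against 0.243 and 0.336 FPKM in scrambled miRNA libraries (0.40 ± 0.052, adjusted p = 0.00674), and KCNMA1 had 0.508 and 0.571 FPKM, against 0.238 and 0.286 FPKM (0.29 ± 0.040, adjusted p = 0.00794). These genes thus rose in both comparisons at levels that the filter had left out. KCNH3 had 0.302 and 0.177 FPKM in mimic libraries, against 1.29 and 1.12 FPKM in scrambled miRNA libraries (-0.83 ± 0.072, adjusted p = 0.00277). It was low with the mimic and, as given above, high with LncND siRNA. KCNG3, another modifying subunit, was at 0.348 ± 0.0651 FPKM in mimic and 1.06 ± 0.179 FPKM in scrambled miRNA cells (-0.61 ± 0.079, adjusted p = 0.00677), while its relative KCNG1 rose. KCNK6 had 0.796 and 0.813 FPKM in mimic and 1.09 and 1.03 FPKM in scrambled miRNA libraries (-0.19 ± 0.047, adjusted p = 0.0366), and KCNK5 fell here too (-0.40 ± 0.075, adjusted p = 0.0171). KCNJ11, the other ATP-sensitive pore, was at 0.814 ± 0.0339 FPKM in mimic and 0.815 ± 0.113 FPKM in scrambled miRNA cells.

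Other genes of potassium handling were read from a list of 57 that the symbol rule does not cover. With LncND siRNA 16 rose, 10 fell and 11 did not pass among 37 tested, a balance that turned to 12 up and 14 down under quantile normalization. The median log2 difference was 0.06 over these genes and 0.02 over all genes tested, of which 36.6% rose and 30.3% fell. Rises and falls numbered 5 and 1 among 8 partners of voltage-gated and ATP-sensitive channels, 1 and 0 among 2 HCN channels, 2 and 1 among 6 sodium pump genes, 2 and 2 among 4 cation-chloride cotransporters, and 6 and 6 among 17 anchors and regulators, while no gamma subunit of the large-conductance channel was tested. Among the genes that rose 1.5-fold or more were HCN2, a pacemaker channel (11.3 ± 0.495 FPKM in LncND siRNA and 5.27 ± 0.305 FPKM in scrambled siRNA cells), the potassium-chloride cotransporters SLC12A4 (21.1 ± 1.41 and 9.35 ± 0.636 FPKM) and SLC12A7 (5.45 ± 0.356 and 3.14 ± 0.075 FPKM). So were the scaffold DLG4 (20.4 ± 0.748 and 11.6 ± 0.199 FPKM) and the G protein subunit GNG2 (45.2 ± 2.15 and 24.4 ± 0.778 FPKM).

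With the mimic 14 of these genes rose, 15 fell and 9 did not pass among 38 tested, and median-ratio scaling gave 16 rises and 12 falls. The median log2 difference was 0.004 over these genes and -0.06 over all genes tested, of which 24.6% rose and 38.6% fell. Rises and falls numbered 6 and 3 among 9 channel partners, 1 and 0 among 2 HCN channels, 2 and 4 among 6 sodium pump genes, 1 and 1 among 4 cotransporters, and 4 and 7 among 17 anchors and regulators. ABCC9, the sulfonylurea receptor that assembles with KCNJ8, rose to 4.56 ± 0.107 FPKM in mimic cells, against 2.28 ± 0.0579 FPKM in scrambled miRNA cells (0.76 ± 0.072, adjusted p = 1.5e-05). It also rose with the siRNA, to 3.56 ± 0.333 FPKM in LncND siRNA cells, against 2.93 ± 0.173 FPKM in scrambled siRNA cells (0.21 ± 0.064, adjusted p = 0.0141), so both parts of this channel were up in both comparisons. DPP6, a partner of KCND channels, rose to 3.41 ± 0.298 FPKM in mimic cells, against 1.53 ± 0.0484 FPKM in scrambled miRNA cells, and RGS4, a brake on G protein signalling, to 458 ± 20.5 FPKM, against 146 ± 2.12 FPKM. Among the genes that fell 1.5-fold or more were the sodium pump subunits ATP1B2 (3.02 ± 0.0143 FPKM in mimic and 7.02 ± 0.0473 FPKM in scrambled miRNA cells) and ATP1B3 (28.4 ± 0.0169 and 52.6 ± 0.935 FPKM). REST, a repressor of neuronal genes, fell in both comparisons (-0.57 ± 0.046, adjusted p = 2.41e-06 with the siRNA, and -0.45 ± 0.073, adjusted p = 0.000468 with the mimic). It was at 5.01 ± 0.218 FPKM in LncND siRNA and 7.94 ± 0.246 FPKM in scrambled siRNA cells, and at 4.06 ± 0.0162 FPKM in mimic and 5.92 ± 0.499 FPKM in scrambled miRNA cells.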

How the data were processed

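The authors deposited FPKM per gene, the only measurement used, in separate siRNA and miRNA tables. Per the submitters' processing notes, TopHat 1.0.0, Cufflinks and hg19 were used. Annotation, strand setting and any filter by the authors: not given in the sources used here. No counts were used, so depth is unknown and no counting error is given. Each table had 25275 rows, and 1304 off the assembled chromosomes were left out. Columns of no sample numbered 0.

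Genes with a table mean of at least 1 FPKM went into limma 3.58.1 as log2(FPKM + 1) (lmFit, eBayes with trend) in R 4.3.3, 2-sided, with Benjamini-Hochberg adjustment over all genes of the table and a threshold of 0.05. The fit was tested on simulated data. Levels were tested within a table only. Levels printed across tables were not tested, since the tables may have been normalized separately. Per-library values are given for channel genes changed 1.5-fold or more (log2 0.58) and the 3 highest of each family, and others by choice after their values were seen. The channel genes, the lists and the tests were chosen with earlier results of these data known. Some genes are counted but not reported here by name, nor drawn.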

Additional observations from a re-analysis of the deposited data

How the results depend on the processing

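No called channel gene changed direction in any alternative (pseudocount 0.1, no filter or 0.5 FPKM, median-ratio scaling, quantile normalization, no trend, replicate block, each library left out). With LncND siRNA 18 of 24 tested channel genes kept their side of the threshold throughout, with the mimic 19 of 23, and for the difference of the effects 12 of 21. Counts of changed channel genes moved with the filter. With LncND siRNA 34 of 86 changed with no filter and 27 of 37 with a filter of 0.5 FPKM, against 17 of 24. With the mimic 21 of 84 changed with no filter, against 13 of 23. The effects differed in 27 of 83 genes with no filter and in 20 of 35 with a filter of 0.5 FPKM, against 13 of 21. Over all genes 5409 rose and 3837 fell with LncND siRNA and no filter, and 4957 and 3932 with a filter of 0.5 FPKM. With the mimic and no filter 2957 rose and 4695 fell. The siRNA effect was above the mimic effect in 5532 and below it in 2827 with no filter, and in 5015 and 2806 with 0.5 FPKM. The shares of all genes at these filters were not computed, so the channel counts there have no background beside them. Quantile normalization gave 14 rises and 5 falls with LncND siRNA, against 15 and 2. Above 2 FPKM were 18 channel genes in LncND siRNA, 16 in scrambled siRNA, 17 in mimic and 15 in scrambled miRNA cells. Above 1 FPKM the counts were 27, 23, 24 and 26 in the same order. More genes enter where the filter is lower.

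Leaving out 1 library gave 16 to 19 changed channel genes with LncND siRNA, 11 to 13 with the mimic and 11 to 14 for the difference, 23 to 27 and 23 to 29 other potassium handling genes, and 22 to 26 channel genes above 1 FPKM. Leaving out scrambled siRNA replicate 3 ended the call of KCNMB4 (adjusted p = 0.063). With the replicate number as a replicate block the counts were 17, 13, 14, 25 and 29. Deviations of same-numbered libraries correlated at -0.0532 to 0.207 (siRNA) and 0.135 (miRNA). With 2 libraries per group, the miRNA value is the same for both replicate numbers. These values cannot decide whether same-numbered libraries shared a culture or a preparation, which the labels do not give. Summing rows of a repeated name was not run, since no channel gene name was repeated. The depth behind each value was unknown, so counting error was not computed.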

Other observations

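The scrambled siRNA and scrambled miRNA cells stood in tables that may have been normalized separately and were not tested against each other. Several potassium channel genes had other levels in these controls. KCNH2 was at 127 ± 2.93 FPKM in scrambled siRNA (n = 3) and 177 ± 2.4 FPKM in scrambled miRNA cells (SD, n = 2), and KCNH3 at 0.389 ± 0.0309 and 1.20 ± 0.116 FPKM. KCNK1 went the other way, at 12 ± 0.0702 FPKM in scrambled siRNA and 8.77 ± 0.651 FPKM in scrambled miRNA cells.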
